A study of Mus musculus with 108 samples.

Results

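Genes of the lysosome and of its transcriptional control were followed through single mouse oocytes with and without Exosc10, a nuclear ribonuclease of the RNA exosome. The 9 were taken by gene symbol: Tfeb, Lamp1, Lamp2, Mcoln1, Npc1, Ctsb, Ctsd, Ctsl and Sqstm1. All 9 were found by Ensembl ID among the 55573 gene IDs of the deposited count files, and 8 of them passed the low-count filter of every fit with counts in both genotypes. Tfeb passed it through the cKO females, since no control female held more than 9 Tfeb counts, so a gene like this can only enter a fit by differing, and its values are given as a description.

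The study sequenced oocytes from females with an Exosc10 knockout restricted to the oocyte (cKO) and from control females. The labels give no Cre driver, strain, age or control genotype. PolyA libraries, captured on oligo(dT) beads, covered 3 stages. GV oocytes still hold the germinal vesicle and GV3h oocytes were taken 3 hours later, both cultured in M2 medium; MII eggs came from the oviducts. RiboMinus libraries, made with the Ovation Solo system and depleted of ribosomal RNA without selection for a poly(A) tail, covered GV and MII. This made 10 groups. The polyA groups held 15 cKO and 7 control oocytes at GV (2 females each), 11 and 8 at GV3h (3 females each), and 15 and 8 at MII (3 females each). The RiboMinus groups held 7 cKO and 8 control oocytes at GV (2 females each), and 4 cKO oocytes from 2 females against 3 control oocytes from 1 female, V1145, at MII. Each female gave oocytes of 1 genotype and 1 stage. Oocytes of 1 female are not independent, so counts were summed per female, and the female was the replicate in every test.

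Lysosomes are acidic organelles in which hydrolases break down material delivered by endocytosis and autophagy. TFEB and its relatives TFE3 and MITF are transcription factors that bind an E-box-like element, the CLEAR motif, in the promoters of many lysosomal and autophagy genes. When the kinase complex mTORC1 is active at the lysosome surface TFEB is held in the cytoplasm, and when nutrients run low it enters the nucleus. A fully grown GV oocyte is nearly silent in transcription, so changes in its mRNA between GV and MII are known to come mainly from decay of stored mRNA and from changes in poly(A) tail length, to which oligo(dT) capture is sensitive.

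Total gene counts were 4638718 to 8735914 in the 64 polyA oocytes and 12319658 to 62675760 in the 22 RiboMinus oocytes. Levels are given in CPM, the gene's share of its library's counts on a fixed total after TMM scaling, computed separately for polyA and RiboMinus and for female sums and single oocytes. ERCC spike-in RNA was added per the labels, but no ERCC lines were among the gene counts used here, so every change is relative to the other RNAs of the same library. Exosc10 matched every label: the highest cKO oocyte had 8.29 CPM, and the lowest control had 43.0 CPM. All 12 markers on a list of oocyte genes, among them Gdf9 and Bmp15, were detected in every group. One RiboMinus MII cKO oocyte, V1166_1, had 62675760 counts and 200 CPM summed over 10 leukocyte markers, where the lowest oocyte of its group had 24.9 CPM. Its macrophage gene Lyz2 was at 36.1 CPM and Ptprc at 13.8 CPM, against at most 0.104 and 0 CPM in the 3 controls of its comparison. RiboMinus GV cKO oocyte V1126_3 had the lowest correlation of all oocytes with the rest of its group (r = 0.868), and polyA MII control oocyte V836_2 stood apart for Ctsl and Mcoln1. Where leaving out 1 of these 3 oocytes changed the call of a gene named below, the value without it is given too.

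The promoters are shown because CACGTG, the core of the element that TFEB binds, lies in some of the members and not in others. RefSeq windows (GRCm38.p6, 250 bases before to 50 after the start site) matched 7 of the 9 genes, all but Ctsb and Npc1. CACGTG, which reads the same on both strands, was in 4 of these 7 (Lamp1, Mcoln1, Ctsd and Ctsl) and in 8.09% of 27025 genes with a window. It was not in the windows of Lamp2, Tfeb (3 windows) or Sqstm1. The longer TCACGTGA, which contains CACGTG, was in 2 of the 7 and in 1.12% of genes, and the 10-base CLEAR palindrome was in 0 of 7 and 0.37%. A match is a run of letters and not a measured binding site. The 100 bases that end at the last base before the Lamp1 start site (chr8:13159061-13159160, plus strand) hold 4 copies, in capitals here and below:
Lamp1: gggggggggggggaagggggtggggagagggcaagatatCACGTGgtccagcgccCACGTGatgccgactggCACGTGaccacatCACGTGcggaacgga

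In the other 3 genes the hexamer stood once or in a pair. It begins 71 and 45 bases before the start of Mcoln1 (chr8:3500440-3500461 and chr8:3500466-3500487, plus strand), 245 and 98 bases before that of Ctsd (chr7:142388059-142388077 and chr7:142387912-142387933, minus strand) and 236 bases before that of Ctsl (chr13:64370743-64370764, minus strand). The second Mcoln1 site, the second Ctsd site and the Ctsl site lie inside the longer gene models of the GENCODE annotation.
Mcoln1, first site: gcgcttgtCACGTGttcagttc
Mcoln1, second site: gccccgctCACGTGaccgcggc
Ctsd, first site: tccccCACGTGacctgtat
Ctsd, second site: ccgcgtctCACGTGacccgttg
Ctsl: ttagaagcCACGTGctgatcta

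Per kilobase of exon, Lamp1 was the highest of the 9 genes in all 10 groups and Tfeb the lowest. Lamp1, a heavily glycosylated protein of the lysosomal membrane, stood at 88.0 CPM per kb in polyA GV controls. Ctsd (28.8), Npc1 (28.4) and Sqstm1 (21.7) followed, then Mcoln1 (11.5), Ctsb (9.29), Lamp2 (2.02), Ctsl (0.55) and Tfeb (0.00925). Ctsd and Npc1 cannot be ordered: their values are nearly equal, and the Ctsd females differed from 53.0 to 82.7 CPM. In polyA MII controls Npc1 (52.0 CPM per kb) stood close to Lamp1 (55.9), and Sqstm1 was down to 6.19. In RiboMinus GV controls Lamp1 was at 123 CPM per kb and Npc1 at 46.5, while Ctsd (6.76) was level with Mcoln1 (6.78). Exon overlaps limit some of these values, since the strand setting of the counting is not given in the sources used here. Ctsd (chr7:142375911-142388038) shares 808 bases of exon with Gm49369 on the same strand, and Ctsl (chr13:64359337-64370890) shares 1742 bases with the antisense gene Gm47123 and 395 with the pseudogene Gm49230. Lamp1 (chr8:13159161-13175338), Ctsb (chr14:63122462-63145923), Npc1 (chr18:12189692-12236400) and Sqstm1 (chr11:50199366-50210827) share 249 to 774 bases with genes on the opposite strand. Lamp2 (chrX:38401357-38456454), Tfeb (chr17:47737030-47792419) and Mcoln1 (chr8:3500457-3515232) overlap no other gene's exons.

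**Figure D1:**
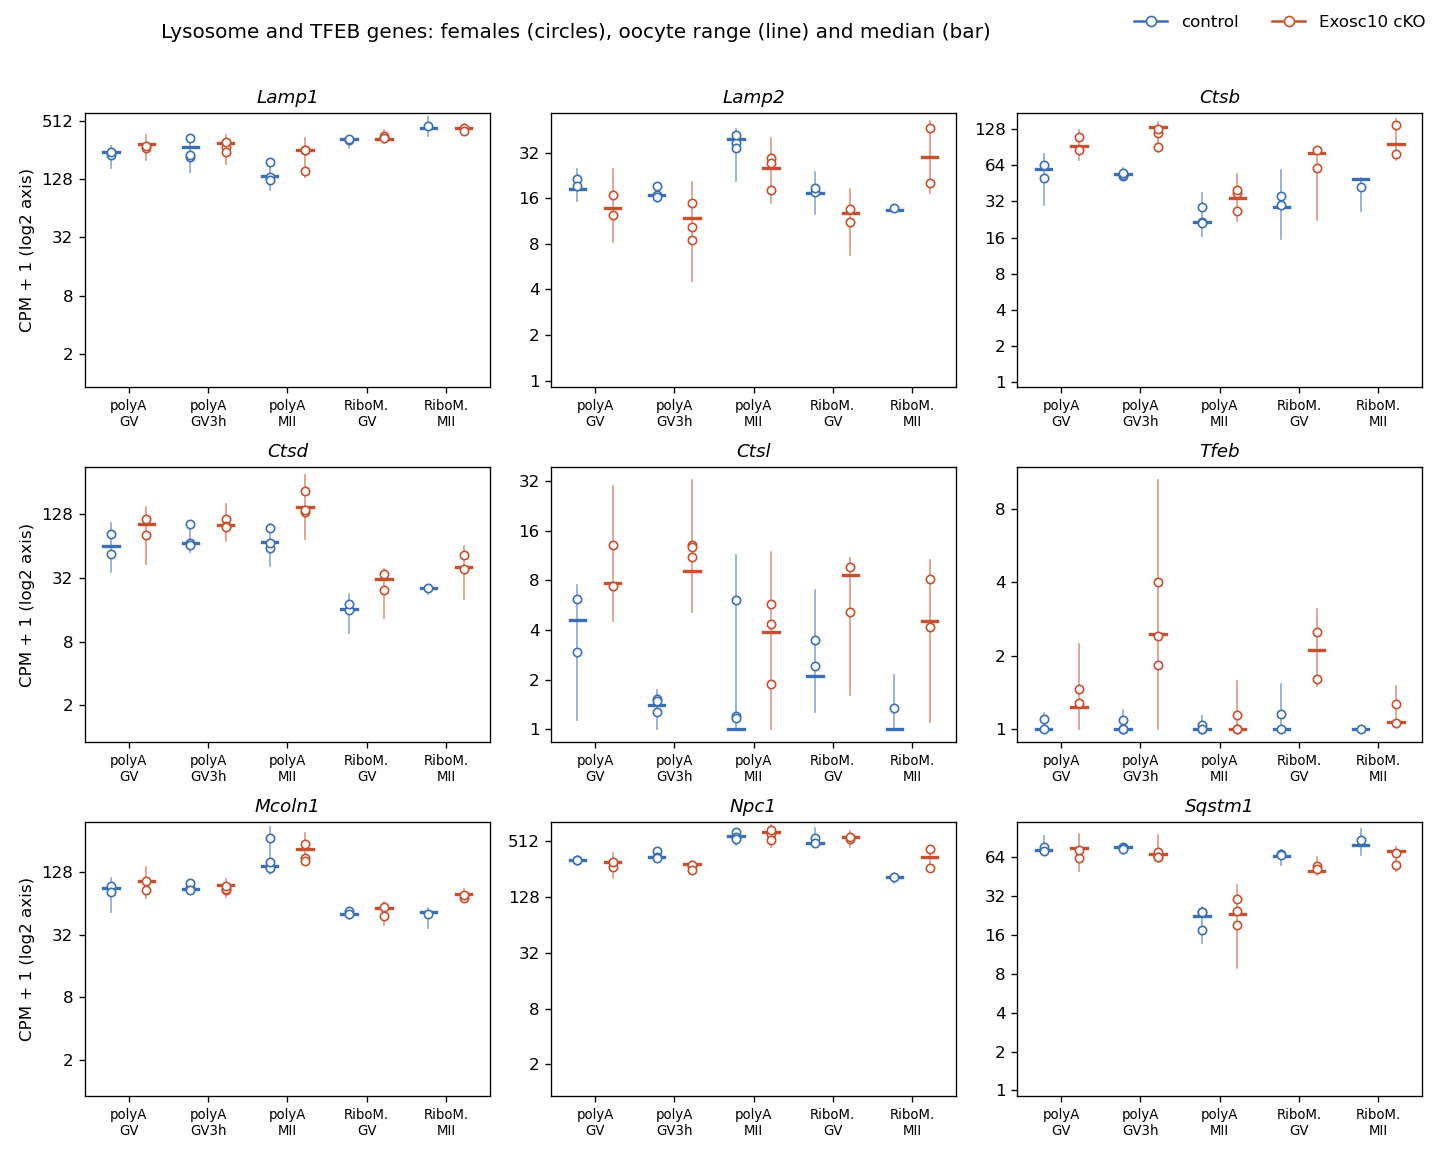
CPM + 1 on a log2 axis for each gene in the 10 groups (controls blue, cKO red). Circles are females, lines span the lowest to the highest oocyte and bars mark the median oocyte; Ctsb circles lie higher in cKO at every stage except for 1 overlap at polyA MII, and Sqstm1 drops at MII in polyA but not in RiboMinus.

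The first question is which of these RNAs differ when oocytes that lack Exosc10 are compared with controls at the same stage. At polyA GV none of the 9 passed edgeR's quasi-likelihood test (adjusted p under 0.05, Benjamini-Hochberg over all genes), where 7.38% of 19242 genes were called. Ctsb alone had an unadjusted p under 0.05, as did 4591 of the 19242 genes. At GV3h Ctsl and Ctsb were called higher in cKO oocytes and Npc1 lower, where 25.2% of genes were called (12.5% higher and 12.7% lower). Tfeb, which entered the fit through the cKO females, was the 1 other call, and it is described without weight on its p-value. At MII only Ctsd was called, higher (18.9% of genes called, 11.9% higher). In RiboMinus libraries none was called at GV, where only 0.0315% of 25425 genes were. There 3 members had an unadjusted p under 0.05, as did 3727 of the 25425 genes. At RiboMinus MII Ctsl was called higher (7.30% of genes called, 3.61% higher). DESeq2, which called 14.2% of genes at polyA GV and 6.19% at RiboMinus GV, called 1 member at each, Ctsb.

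Tfeb itself was close to undetected in controls. At GV3h the 3 cKO females had 2.99, 0.832 and 1.41 CPM, and the 3 control females had 0, 0.0896 and 0 CPM. Among oocytes 1 of 11 cKO and 7 of 8 controls had 0 counts, and the cKO oocytes ran from 0 through a median of 1.46 to 9.47 CPM. The females did not overlap. Summed over oocytes these are 170 counts against 1, a depth-corrected ratio of 77.3 (95% exact interval 13.7 to 3072, counting error only). The edgeR adjusted p was 0.00617, but it adds nothing to these counts, because the gene was tested only through the females in which it was high. The highest single oocyte held 61 of the 170 counts.

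The other Tfeb comparisons, under the same limit, were not called. At polyA GV 42 counts stood against 2, a ratio of 7.82 (2.03 to 66.7; edgeR adjusted p = 0.245). RiboMinus GV gave 144 against 9, a ratio of 14.3 (7.32 to 31.9; edgeR adjusted p = 0.362), and all 9 control counts came from 1 oocyte. At polyA MII 10 counts stood against 1, all 10 from female V897, a ratio of 4.93 (0.701 to 214; edgeR adjusted p = 0.472). At RiboMinus MII 20 counts stood against 0, at least 2.35-fold higher over a floor of 3 counts in the control group (edgeR adjusted p = 0.264).

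The cathepsins are the lysosome's proteases, Ctsb and Ctsl cysteine proteases and Ctsd an aspartic one. Ctsb at GV3h was 119, 90.3 and 127 CPM in cKO females and 51.4, 51.8 and 54.0 CPM in controls. Neither females nor oocytes overlapped: the cKO oocytes ran from 81.8 through 132 to 147 CPM, the controls from 47.3 through 53.6 to 59.8 CPM. The log2 fold change was 1.10 ± 0.20 (SE; edgeR adjusted p = 0.000986), a 2.14-fold higher level.

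Ctsb was higher in cKO females in the other 4 comparisons too, without passing the test. At polyA GV the females were at 109 and 84.9 CPM against 63.1 and 49.3 CPM, a log2 difference of 0.79 ± 0.24 (edgeR adjusted p = 0.0565). At polyA MII they were at 36.5, 25.7 and 38.7 CPM against 20.4, 27.6 and 20.2 CPM, which overlap, a log2 difference of 0.56 ± 0.20 (edgeR adjusted p = 0.0581). The RiboMinus females were at 59.6 and 84.5 against 28.7 and 34.7 CPM at GV (1.19 ± 0.32; edgeR adjusted p = 0.172), and at 138 and 78.4 against 40.9 CPM at MII (1.41 ± 0.42; edgeR adjusted p = 0.0722). No control or cKO female was shared between these 5 comparisons. The lowest RiboMinus GV cKO oocyte for Ctsb, at 21.4 CPM where the group's median was 79.8, was V1126_3; without it the difference was 1.33 (edgeR adjusted p = 0.0534). Without V1166_1 the RiboMinus MII value was 1.10 (0.127). The call at polyA GV depended on the setting. It was made in 6 of the 7 alternatives other than leaving out a female. DESeq2 gave an adjusted p of 0.00628 and limma with the female as a block 0.000639. The edgeR adjusted p was 0.0389 and 0.0195 with the 2 other scalings and 0.0268 with no low-count filter. The lowest, 1.98e-05 in edgeR, came from treating each oocyte as a replicate, although oocytes of 1 female are not independent.

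Ctsl was low in controls. At GV3h the cKO females had 12, 9.99 and 11.7 CPM and the controls 0.275, 0.538 and 0.480 CPM. The lowest cKO oocyte, at 4.15 CPM, was above the highest control, at 0.732 CPM. The summed counts were 1068 against 19, a depth-corrected ratio of 25.6 (95% exact interval 16.3 to 42.6, counting error only), with an edgeR adjusted p of 0.00404. At polyA GV the females were at 12 and 6.43 against 5.19 and 1.95 CPM (log2 difference 1.37 ± 1.03; edgeR adjusted p = 0.455), and the oocytes overlapped. At RiboMinus GV the log2 difference was 1.72 ± 0.62 (edgeR adjusted p = 0.269), and 1.87 (0.112) without V1126_3, in which Ctsl was low.

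At MII 1 oocyte decided the Ctsl result in each library type. In polyA the cKO females had 4.72, 0.896 and 3.37 CPM and the controls 5.11, 0.208 and 0.166 CPM, and 59 of the 66 control counts came from oocyte V836_2. With it the log2 difference was 0.77 ± 0.89 (edgeR adjusted p = 0.578), and without it 4.23 (edgeR adjusted p = 0.00104). V836_2 was left out after the data were seen and stood apart for Ctsl itself, so the adjusted p without it carries no weight. That oocyte also had the highest summed level of 19 cumulus and granulosa markers in its group (175 CPM, where the group's median was 133). Over the group Cyp19a1 alone averaged 99.1 CPM, and 8 of the 19 markers had 0 counts. The part of these markers in the Ctsl value was not tested. In RiboMinus the cKO females had 7.19 and 3.15 CPM and the 1 control female 0.349 CPM, all 17 of whose counts came from 1 of 3 oocytes. The log2 fold change was 3.88 ± 0.94 (edgeR adjusted p = 0.0440). Of the 769 cKO counts 584 came from V1166_1, the oocyte with the leukocyte markers, and without it the value was 2.39 (edgeR adjusted p = 0.256); the part of the leukocyte RNA was not tested. Without female V1166 it was 3.18 (edgeR adjusted p = 0.0586), and limma with the female as a block gave 4.53 (adjusted p = 0.184). With 1 control female, the effect of genotype here cannot be told apart from that female, and its spread was taken from the other RiboMinus groups.

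Ctsd was higher in cKO eggs at polyA MII, with 210, 133 and 139 CPM in cKO females and 93.8, 60.6 and 67.3 CPM in controls. The females did not overlap, and the oocytes did (74.2 to 297 CPM against 40.4 to 102 CPM). The log2 fold change was 1.12 ± 0.25 (edgeR adjusted p = 0.00564), a 2.18-fold higher level. At polyA GV the difference was 0.52 ± 0.30 (edgeR adjusted p = 0.309) and at GV3h 0.40 ± 0.24 (0.249), with overlapping females at both stages. RiboMinus gave 0.86 ± 0.31 at GV (edgeR adjusted p = 0.267) and 0.96 (0.0915) without V1126_3, in which Ctsd was low. At RiboMinus MII it was 0.86 ± 0.39 (edgeR adjusted p = 0.187), and 0.20 (0.842) without V1166_1. Part of its count may belong to Gm49369, which the files cannot separate.

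Among the membrane proteins, Lamp2, the partner of Lamp1 that also serves chaperone-mediated autophagy, was lower in cKO females than in controls in the 4 comparisons with more than 1 control female, with no overlap of females in any. At GV3h the females were at 7.43, 14 and 9.35 CPM against 15.8, 18.3 and 15.2 CPM, and the log2 difference of -0.68 ± 0.26 missed the threshold (edgeR adjusted p = 0.0680). DESeq2 called Lamp2 at GV3h (-0.64; adjusted p = 0.0438) and at polyA MII (-0.65; 0.0441). The values were -0.50 ± 0.31 at polyA GV (edgeR adjusted p = 0.352), -0.61 ± 0.26 at polyA MII (0.106) and -0.60 ± 0.42 at RiboMinus GV (0.538). At RiboMinus MII it pointed the other way, at 45.7 and 19.3 CPM in cKO females and 12.7 CPM in V1145 (1.35 ± 0.54; edgeR adjusted p = 0.147). V1166_1 held 3082 of the 4849 Lamp2 counts of that group, and without it the difference was 1.03 (edgeR adjusted p = 0.232).

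Npc1, which carries cholesterol out of the lysosome, was lower at GV3h: 280, 282 and 252 CPM in cKO females against 401, 346 and 337 CPM in controls. Neither females nor oocytes overlapped, and the log2 fold change was -0.41 ± 0.12 (edgeR adjusted p = 0.0209). The call depends on the setting. With library totals in place of TMM, which raised the median of all genes from 0.067 to 0.294, the value was -0.18 (edgeR adjusted p = 0.256), and with DESeq2 size factors it was kept (-0.38, 0.0277). It was lost with no low-count filter (-0.36, 0.131), without cKO female V993 (-0.36, 0.0884) and without control female V951 (-0.33, 0.105). At the other polyA stages the Npc1 difference was -0.15 ± 0.15 at GV and 0.06 ± 0.12 at MII. In RiboMinus it was 0.09 ± 0.25 at GV (edgeR adjusted p = 0.919). At RiboMinus MII the cKO females were at 266 and 420 CPM against 210 CPM in V1145, with no overlap of oocytes, and the difference of 0.71 ± 0.32 was not called (edgeR adjusted p = 0.186).

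Lamp1, Mcoln1 and Sqstm1 were not called in any genotype comparison. Lamp1 came nearest at polyA MII, with 155, 256 and 252 CPM in cKO females and 191, 134 and 123 CPM in controls, a log2 difference of 0.57 ± 0.22 (edgeR adjusted p = 0.0786) between overlapping groups; with library totals it was called (0.66; 0.0393). Mcoln1, the lysosomal calcium channel TRPML1, differed by 0.11 ± 0.25, -0.06 ± 0.21 and 0.03 ± 0.21 at polyA GV, GV3h and MII, and by 0.04 ± 0.23 and 0.56 ± 0.29 at RiboMinus GV and MII (edgeR adjusted p of 0.968 and 0.245). Sqstm1, the autophagy receptor p62, differed by -0.13 ± 0.22, -0.19 ± 0.18 and 0.18 ± 0.18 in polyA, and by -0.33 ± 0.23 and -0.50 ± 0.27 in RiboMinus (0.541 and 0.273). Set beside the promoters, the 4 genes with CACGTG were Ctsl and Ctsd, each called in at least 1 comparison, and Lamp1 and Mcoln1, called in none. Of those without it, Tfeb was called, under the limit above, and Lamp2 and Sqstm1 were not. Ctsb and Npc1, which had no window, were both called. Single comparisons called 0.0315% to 25.2% of all genes, and a link between motif and calls was not tested.

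Separation of females alone is common in these data and was read against all genes. The females of the 2 genotypes did not overlap for 6 of 9 members at polyA GV (52.1% of all genes), 6 at GV3h (51.4%), 2 at MII (32.8%), 7 at RiboMinus GV (56.6%) and 9 at RiboMinus MII (71.5%, with 1 control female). These counts and the medians that follow include Tfeb and are a description. The median log2 difference of the 9 members was 0.21, 0.08 and 0.56 at polyA GV, GV3h and MII, where all genes had medians of 0.08, 0.07 and 0.12. For RiboMinus it was 0.09 and 0.86 at GV and MII, against 0.04 and 0.25.

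**Figure D2:**
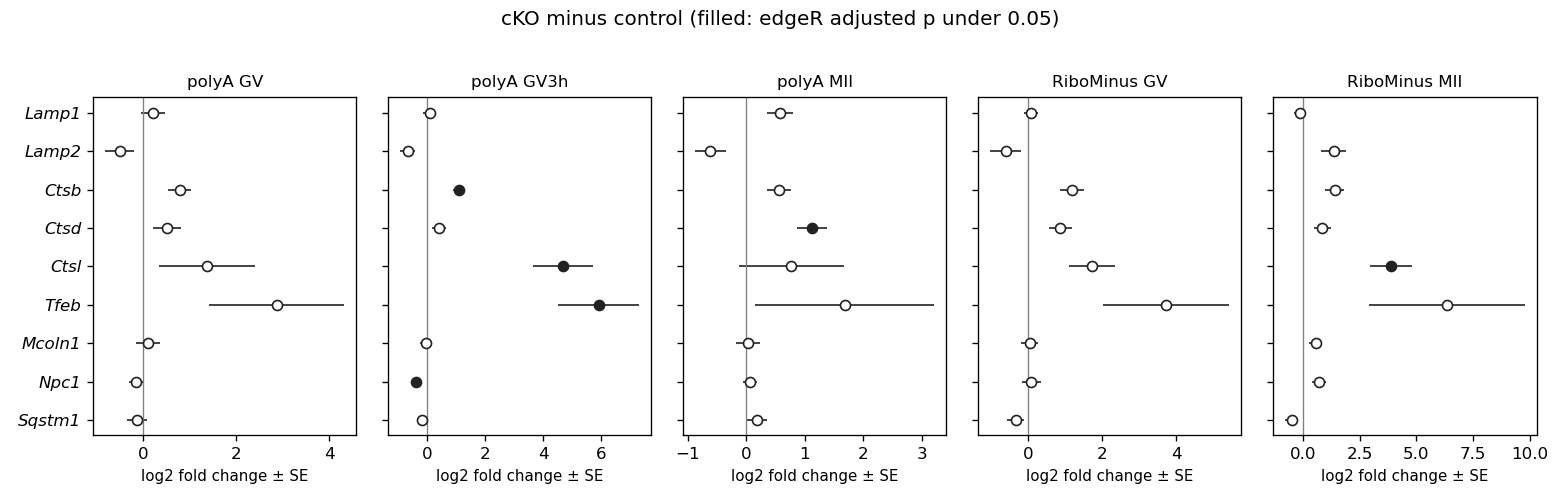
Log2 fold change (cKO minus control, ± SE) of the 9 genes in the 5 genotype comparisons; filled points have an edgeR adjusted p under 0.05 and the horizontal axes differ between panels. Ctsb, Ctsd, Ctsl and Tfeb lie to the right of 0 in all 5 panels; filled points are Ctsb, Ctsl, Tfeb and Npc1 at GV3h, Ctsd at polyA MII and Ctsl at RiboMinus MII.

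The interaction terms asked whether the genotype difference itself changed with stage. edgeR called 0 of 9 members for GV3h against GV in polyA (0.0% of genes), 0 for MII against GV in polyA (1.94%) and 0 for MII against GV in RiboMinus (0.0%). Unadjusted p-values were under 0.05 for 1 member, 0 and 1 in these terms. Over all genes they were for 307 of 19242, 3086 of 19242 and 3611 of 25425. DESeq2 called 0 members in all 3 (0.0%, 5.83% and 4.43% of genes). The Ctsl term from GV to GV3h was 3.30 ± 1.43, and the Ctsd term from GV to MII 0.61 ± 0.38. So the calls at GV3h and MII above were not shown to differ from those at GV.

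The second question is what happens to these RNAs as oocytes mature. In culture for 3 hours, edgeR called 0 of 9 members in controls and 0 in cKO oocytes (0.0% of genes in both). In controls Ctsl alone had an unadjusted p under 0.05, as did 425 of 19242 genes. Its females had 5.19 and 1.95 CPM at GV and 0.275, 0.538 and 0.480 CPM at GV3h. In cKO oocytes no member had an unadjusted p under 0.05, where 373 of 19242 genes did. DESeq2 called 0 in both (0.0832% and 0.0883% of genes).

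Between GV and MII, 6 of 9 members were called in polyA controls, where 42.5% of all genes were: 3 higher (16.8% of genes) and 3 lower (25.7%). In cKO oocytes 6 were called (44.7% of genes), 4 higher (18.1%) and 2 lower (26.6%). The control females and the cKO females are separate animals.

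Sqstm1 fell in both genotypes. Control females were at 75.3 and 70.2 CPM at GV and at 23.1, 22.9 and 16.4 CPM at MII, and neither females nor oocytes overlapped. The log2 change was -1.80 ± 0.20 (edgeR adjusted p = 2.04e-06), a 3.49-fold drop. In cKO oocytes it went from 61.7 and 70.9 to 18.1, 29.2 and 23.2 CPM, a change of -1.50 ± 0.20 (edgeR adjusted p = 1.46e-05).

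Ctsb fell from 63.1 and 49.3 to 20.4, 27.6 and 20.2 CPM in controls, by 1.30 ± 0.22 on the log2 scale (edgeR adjusted p = 0.000141). In cKO oocytes it fell from 109 and 84.9 to 36.5, 25.7 and 38.7 CPM, by 1.52 ± 0.21 (edgeR adjusted p = 2.99e-05). Lamp1 fell in controls, from 228 and 243 to 191, 134 and 123 CPM (-0.65 ± 0.24; edgeR adjusted p = 0.0366). That call was lost without any 1 of 4 of the 5 females (V856, V889, V853 or V896; values of -0.72, -0.58, -0.58 and -0.54, edgeR adjusted p from 0.0922 to 0.175). It was also lost with DESeq2 (-0.57; adjusted p = 0.0617) and with its size factors in edgeR (-0.57, 0.0656). In cKO oocytes Lamp1 changed by -0.29 ± 0.24 (edgeR adjusted p = 0.341).

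Npc1 and Mcoln1 moved the opposite way. Npc1 rose from 324 and 318 CPM at GV to 645, 572 and 548 CPM at MII in controls (0.87 ± 0.14; edgeR adjusted p = 8.83e-05) and from 273 and 307 to 622, 532 and 686 CPM in cKO oocytes (1.08 ± 0.14; edgeR adjusted p = 1.25e-05). No oocytes overlapped in either genotype. Mcoln1 rose from 92.8 and 81.2 to 268, 140 and 157 CPM in controls (1.11 ± 0.24; edgeR adjusted p = 0.00132). The value of 268 is female V836, whose oocyte V836_2 reached 344 CPM; without that oocyte the rise was 0.85 (edgeR adjusted p = 0.000908). In cKO oocytes Mcoln1 rose from 85.1 and 103 to 173, 163 and 237 CPM (1.03 ± 0.24; edgeR adjusted p = 0.00228).

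Lamp2 rose from 20.5 and 18.2 to 35.9, 33.4 and 41.0 CPM in controls (0.93 ± 0.29; edgeR adjusted p = 0.0182). It rose from 15.9 and 11.4 to 17.2, 28.6 and 26.3 CPM in cKO oocytes (0.82 ± 0.29; edgeR adjusted p = 0.0311). Ctsd rose in cKO oocytes only by the test, from 113 and 80.7 to 210, 133 and 139 CPM (0.73 ± 0.28; edgeR adjusted p = 0.0414), and changed by 0.12 ± 0.27 in controls, a difference between genotypes that the interaction term above did not call. The Lamp2 calls were lost without control female V856, V889 or V896 (1.00, 0.88 and 0.84; edgeR adjusted p from 0.0503 to 0.112) and without cKO female V888, V842 or V897 (0.59, 0.68 and 0.75; 0.0781 to 0.215). The Lamp2 call in cKO oocytes was also lost with no low-count filter (0.82, edgeR adjusted p = 0.0619) and with only the groups compared (0.83, 0.0785). The Ctsd call was lost without V888 (0.50) or V841 (0.49, edgeR adjusted p = 0.176) and with only the groups compared (0.75, 0.0593).

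For the Ctsl change in controls 1 oocyte was again decisive. With V836_2 the log2 change from GV to MII was -1.01 ± 0.96 (edgeR adjusted p = 0.425), and without it -4.48 (edgeR adjusted p = 0.000151). The adjusted p without that oocyte again carries no weight, since V836_2 stood apart for Ctsl itself. In cKO oocytes the Ctsl change was -1.61 ± 0.92 (edgeR adjusted p = 0.169), and Tfeb changed by -2.29 ± 1.16 (0.122).

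The rises depend in size on the scaling. TMM put the median of all genes at -0.26 (controls) and -0.332 (cKO), and library totals put it at -0.692 and -0.855. Of the called genes 39.5% rose in controls with TMM and 21.4% with library totals; for cKO oocytes these shares were 40.5% and 20.0%. With library totals the Npc1 rises of 0.44 and 0.56 and the Mcoln1 rise in controls of 0.68 were still called. Mcoln1 in cKO oocytes (0.50; edgeR adjusted p = 0.0821), both Lamp2 rises (0.50 and 0.30; 0.190 and 0.427) and the Ctsd rise (0.22; 0.545) were not.

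In RiboMinus libraries edgeR called 0 of 9 members from GV to MII in controls (0.00787% of genes) and 0 in cKO oocytes (2.32%). Unadjusted p-values were under 0.05 for 2 members in each, and for 3834 of 25425 genes in controls and 5166 in cKO oocytes. DESeq2 called 1 member in each (6.08% of genes in controls and 11.5% in cKO oocytes). Npc1 was at 553 and 498 CPM in GV control females and 210 CPM in V1145 (-1.33 ± 0.33; edgeR adjusted p = 0.137), with no overlap of oocytes. In cKO oocytes Npc1 went from 545 and 573 to 266 and 420 CPM (-0.71 ± 0.25; edgeR adjusted p = 0.166). Sqstm1 was at 65.6 and 64.6 CPM in GV controls and 85.9 CPM at MII (0.40 ± 0.28; edgeR adjusted p = 0.526), and Ctsb at 28.7 and 34.7 against 40.9 CPM (0.37 ± 0.39; 0.674). Lamp2 in cKO oocytes went from 12.5 and 10.1 to 45.7 and 19.3 CPM (1.53 ± 0.42; edgeR adjusted p = 0.0935), and without V1166_1 the change was 1.21 (0.181).

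The stage change in polyA RNA was then tested against that in RiboMinus RNA, in 1 fit over all 10 groups. In controls 4 of 9 members differed (22.8% of 24777 genes called), 2 with the higher change in polyA (10.9% of genes) and 2 with the lower (11.9%). Npc1 rose in polyA while its RiboMinus level was lower at MII, a difference of 2.36 ± 0.31 on the log2 scale (edgeR adjusted p = 6.82e-06), and Mcoln1 differed by 1.32 ± 0.40 (0.0182). Sqstm1 differed by -2.04 ± 0.33 (edgeR adjusted p = 7.65e-05) and Ctsb by -1.50 ± 0.42 (0.0119): their fall in polyA was not matched in RiboMinus. The Ctsb call was lost without RiboMinus female V1132 (-1.37; edgeR adjusted p = 0.0566), and the Mcoln1 call without polyA female V889 (1.25, 0.0594) and with library totals (0.78, 0.149). Lamp1, at -0.96 ± 0.37 (edgeR adjusted p = 0.0671), missed the threshold, and passed it without oocyte V836_2 (-1.01, 0.0467), with DESeq2 (-1.0, 0.0394) and with library totals (-1.50, 0.00341).

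In cKO oocytes 3 of 9 differed (20.7% of genes called), 1 higher (11.6%) and 2 lower (9.17%). Npc1 differed by 1.96 ± 0.26 (edgeR adjusted p = 1.73e-05), Ctsb by -1.93 ± 0.38 (0.000828) and Sqstm1 by -1.55 ± 0.30 (0.000628). The control value rests on 1 RiboMinus MII female and the cKO value on 2, other animals in each case. Npc1, Ctsb and Sqstm1 had the same sign in both genotypes.

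**Figure D3:**
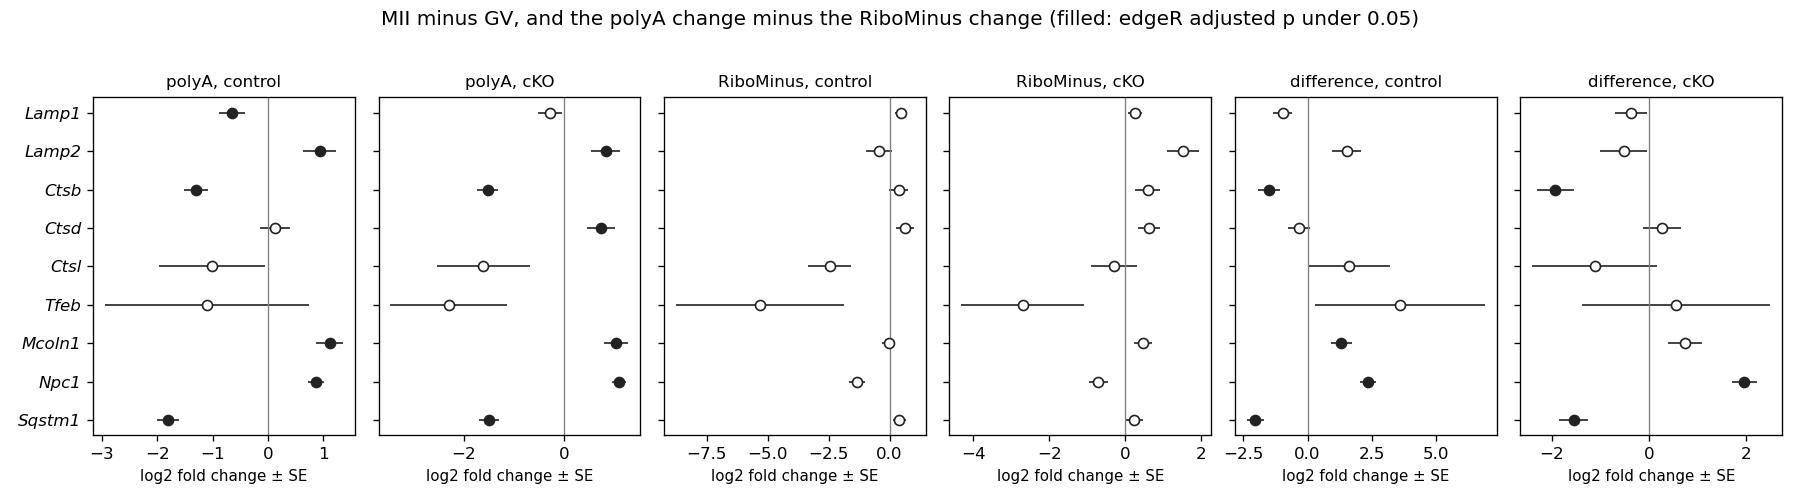
MII minus GV log2 change (± SE) for both library types and both genotypes, and in the last 2 panels the polyA change minus the RiboMinus change; filled points have an edgeR adjusted p under 0.05 and the axes differ between panels. Npc1 lies to the right of 0 in polyA and to the left in RiboMinus, and Sqstm1 and Ctsb the reverse.

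The rest of the pathway was read from 8 lists that hold 169 genes, the 9 members included. At GV3h 38 of 157 tested list genes were called between genotypes (24.2%, against 25.2% of all genes), 22 higher and 16 lower, and at MII 33 (21.0%, against 18.9%), 26 higher and 7 lower. At polyA GV 8 were called (5.10%, against 7.38%), and at RiboMinus GV 0 of 163. So the lists as a whole stood near the level of all genes. With library totals the splits were 38 higher and 7 lower at GV3h and 38 and 3 at MII, and the higher share of all called genes was 70.5% at GV3h (49.5% with TMM) and 72.6% at MII (63.1% with TMM). At RiboMinus MII 15 of 163 were called (9.20%, against 7.30% of all genes). Of these 13 were higher and 2 lower, where over all genes 919 were higher and 938 lower. Without V1166_1 2 list genes were called, where 3.63% of all genes were.

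In the list of TFEB relatives and nutrient control, 11 of 27 genes were called at GV3h (40.7%, against 25.2% of all genes), 8 higher and 3 lower. Tfeb, which entered the fit through the cKO females, is 1 of the 8. With library totals 16 of the 27 were called, where 26.0% of all genes were, 14 higher and 2 lower. Rptor, which brings substrates to mTORC1, was 36.8 CPM in cKO and 15.8 CPM in control females on average (1.22 ± 0.28; edgeR adjusted p = 0.00492), and Ppp3cb, a catalytic subunit of calcineurin, the phosphatase that acts on TFEB, was 24.6 against 12 CPM (1.04 ± 0.22; 0.00355). Fnip1 and Flcn, partners in the folliculin complex that steers mTORC1 towards TFEB, were lower: 29.1 against 82.9 CPM (-1.51 ± 0.23; 0.000362) and 62.6 against 113 CPM (-0.85 ± 0.16; 0.00156). At RiboMinus MII, with 1 control female, Flcn was called higher, at 106 against 43.4 CPM (1.29 ± 0.31; 0.0421), a call lost without V1166_1 (1.26, 0.0791) and with only the groups compared (1.37, 0.0602). Fnip1 was lower at polyA GV as well, at 34.3 against 78.0 CPM (-1.19 ± 0.28; 0.0208). At MII 6 of the 27 were called (22.2%, against 18.9% of all genes); Tsc2, part of the brake on mTORC1, was 48.8 against 21.7 CPM (1.16 ± 0.19; 0.000832) and the GTPase gene Rraga 615 against 805 CPM (-0.39 ± 0.12; 0.0378). The Rraga call was lost with library totals (-0.29, 0.107) and without V836_2 (-0.37, 0.0571).

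Among cathepsins and legumain, 4 of 10 tested genes were called at GV3h (40.0%, against 25.2% of all genes), Ctsb and Ctsl higher and Lgmn and Ctsh lower, so these proteases did not move together with TMM; with library totals only the 2 higher calls were made. Lgmn, an asparagine-specific protease, was lower at all 3 polyA stages, with 19.5 against 38.9, 20.7 against 36.3 and 10.7 against 18.3 CPM (-1.0 ± 0.26, -0.81 ± 0.21 and -0.77 ± 0.22; edgeR adjusted p of 0.0315, 0.0117 and 0.0231). With library totals Lgmn lost the call at GV and GV3h (-0.81 and -0.58; 0.0745 and 0.0601), and Ctsh at GV3h (-0.38; 0.0796). Of the other hydrolases 6 of 32 were called at GV3h (18.8%), 3 higher and 3 lower, and 9 at MII (28.1%, against 18.9% of all genes), 7 higher and 2 lower. With library totals the splits were 6 and 2 at GV3h and 9 and 1 at MII. Idua, which degrades glycosaminoglycans, was 29.1 against 5.43 CPM at MII (2.42 ± 0.43; 0.00151), and Ids, which acts in the same pathway, 15.4 against 4.59 CPM at GV (1.74 ± 0.46; 0.0323) and 10.8 against 4.34 CPM at GV3h (1.32 ± 0.38; 0.0189). Ppt2, a thioesterase, was lower at GV, GV3h and MII (-0.81 ± 0.21, -0.83 ± 0.17 and -0.55 ± 0.17; 0.0307, 0.00272 and 0.0352), and with library totals it was called at GV3h alone (-0.61, 0.0179). Arsb, a sulfatase, was 6.71 against 19.8 CPM at GV3h (-1.57 ± 0.34; 0.00329).

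Of 24 lysosomal membrane genes 6 were called at GV3h (25.0%, near the 25.2% of all genes), 4 higher and 2 lower (5 and 0 with library totals), where Ostm1 and its chloride transporter partner Clcn7 were both higher (2.66 ± 0.51 and 1.30 ± 0.34; edgeR adjusted p of 0.00159 and 0.0112). Of 18 genes of the V-ATPase, the proton pump, 5 were called at GV3h and 5 at MII (27.8% at each, against 25.2% and 18.9% of all genes). At GV3h 4 were higher and 1 lower, and at MII all 5 were higher. The higher genes included Atp6ap2 at GV3h (63.4 against 30.1 CPM, 1.08 ± 0.19; 0.000795) and Atp6ap1 at MII (75.7 against 45.5 CPM, 0.74 ± 0.22; 0.0296). The lower gene was Atp6v0a2 (140 against 196 CPM, -0.48 ± 0.12; 0.00776), which lost the call with library totals (-0.26, 0.121). Of 29 autophagy genes 4 were called at each of GV3h and MII (13.8%), 1 higher and 3 lower at GV3h and 3 higher and 1 lower at MII. With library totals 4 were called at GV3h, 3 higher and 1 lower, and 6 at MII, all higher. Uvrag was lower at GV and GV3h (-0.82 ± 0.17 and -0.90 ± 0.14; 0.0110 and 0.000385) and Wipi2 higher at GV3h (1.10 ± 0.25; 0.00492). At MII the LC3 genes moved apart, Map1lc3a higher (1.46 ± 0.22; 0.000512) and Map1lc3b lower (-0.77 ± 0.25; 0.0425). The Map1lc3b call was lost with library totals (-0.67, 0.0661) and without V836_2 (-0.58, 0.0864).

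These list calls differ in how well they held. At GV3h those of Rptor, Ppp3cb, Fnip1, Flcn, Ppt2, Arsb, Ostm1, Atp6ap2, Uvrag and Wipi2 were made in each of the 13 alternatives run, and at MII those of Tsc2, Idua and Map1lc3a in each of 14. At polyA GV none of the 7 list genes chosen for description there was called with only the groups compared (adjusted p from 0.144 to 0.206 in edgeR). The polyA GV calls of Fnip1 and Lgmn were also lost without any 1 of the 4 females, and those of Ids, Ppt2 and Uvrag without V857, V856 or V889. At GV3h the calls were lost for Clcn7 without V993 or V995, for Ids without V983, V982 or V995, for Lgmn without V993 and for Atp6v0a2 with no low-count filter. At MII they were lost for Rraga without any female but V836, for Atp6ap1 without any but V841, for Ppt2 without V841, V842, V853 or V896, for Lgmn without V841, V842 or V896 and for Map1lc3b without V841, V897, V836 or V853. With no low-count filter the calls of Lgmn at GV and MII and of Ppt2, Rraga and Map1lc3b at MII were lost too, as was Map1lc3b with only the groups compared and Lgmn at MII with limma (adjusted p = 0.215). Hgsnat and Abca2, also among the 7 genes at polyA GV, each lost the call without 3 of the 4 females.

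**Figure D4:**
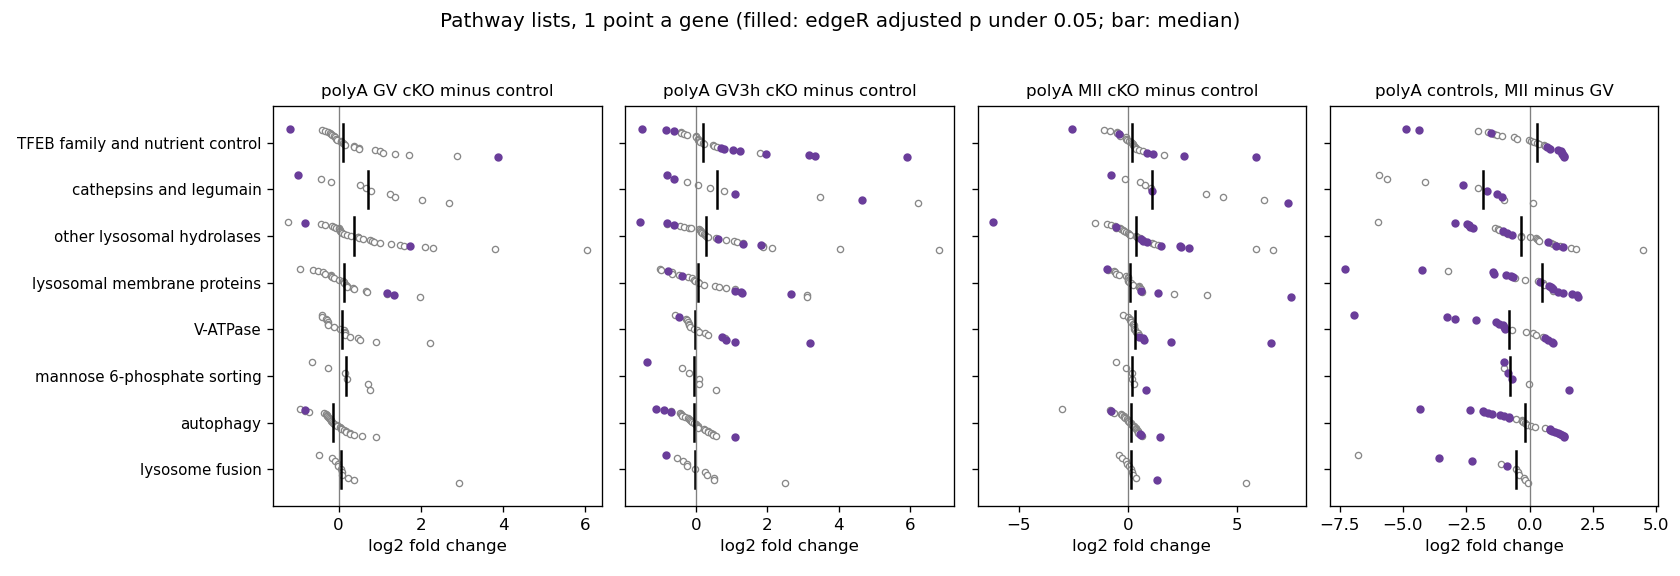
Log2 fold change of each tested gene in the 8 pathway lists for 3 genotype comparisons and for MII minus GV in polyA controls; filled points have an edgeR adjusted p under 0.05 and bars mark each list's median. Called genes lie on both sides of 0 in most lists, and the GV to MII panel holds the most of them, 83 of 157.

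From GV to MII in polyA controls 83 of the 157 tested list genes were called (52.9%, against 42.5% of all genes), 36 higher and 47 lower; with library totals the split was 22 higher and 66 lower. Of 18 V-ATPase genes 13 were called, 4 higher and 9 lower (2 and 10 with library totals): Atp6v1e1 fell from 264 to 27.1 CPM (-3.28 ± 0.20; edgeR adjusted p = 5.11e-09), while Atp6v1a rose from 111 to 209 CPM (0.91 ± 0.14; 7.92e-05). In the list of TFEB relatives and nutrient control 12 of 27 were called (44.4%), 9 higher and 3 lower, and with library totals 6 higher and 5 lower. Rraga rose from 318 to 805 CPM (1.34 ± 0.14; 1.71e-06). In the Ragulator complex, which anchors mTORC1 to the lysosome, Lamtor5 fell from 145 to 4.98 CPM (-4.86 ± 0.29; 4.08e-09) and Lamtor4 from 24.5 to 1.22 CPM (-4.38 ± 0.32; 2.49e-08). Flcn rose from 100 to 255 CPM (1.35 ± 0.19; 2.46e-05). Among autophagy genes 9 of 29 were higher and 10 lower (6 and 15 with library totals). Map1lc3a fell from 44.3 to 2.21 CPM (-4.32 ± 0.24, edgeR adjusted p = 2.35e-09), as Sqstm1 did, and Atg16l1 rose from 232 to 586 CPM (1.34 ± 0.16, 4.11e-06). These changes are in polyA RNA. In RiboMinus controls, with 1 MII female, the median change was 0.58 for V-ATPase, -0.14 for TFEB relatives and nutrient control and -0.11 for autophagy. The polyA medians of these lists were -0.82, 0.27 and -0.2. In cKO oocytes the polyA and RiboMinus changes differed for 58 of 163 list genes (35.6%, against 20.7% of all genes).

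Over the 16 polyA females likeness between members is given as a description, since the females share stages and library type. Npc1 and Mcoln1 ran together (Pearson r of log2 CPM = 0.92), and both ran against Sqstm1 (-0.89 and -0.88). Lamp2 ran against Ctsb (-0.92). Among genes with a mean of at least 10 CPM, the one nearest to each member was Zcchc8 for Npc1 (r = 0.987), Trappc2l for Sqstm1 (0.989), Nop2 for Ctsb (0.983), Nup85 for Mcoln1 (0.96), Osbpl1a for Lamp2 (0.96) and Strn4 for Lamp1 (0.888). Ctsd was nearest to Gm49369 (0.997), with which it shares exon sequence. Ctsl and Tfeb, both under that level, were nearest to Ipo7 (0.906) and Magt1 (0.884).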

How the data were processed

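Each sample is 1 oocyte, grouped by library type, stage and genotype as its labels give them. The deposited gene files hold raw read counts per Ensembl gene; per the submitters' processing notes, cutadapt 2.5, STAR 2.7.2a and HTSeq 0.9.1 were used with mm10. Lines that name no gene, 5.86% to 14.2% of gene counts for reads outside genes, were left out. The rRNA libraries were not used here. Counts were summed per female and tested with edgeR 4.0.16 (filterByExpr, TMM, quasi-likelihood, two-sided, Benjamini-Hochberg over all genes), in 1 fit for 16 polyA females, 1 for 7 RiboMinus females and 1 for all 23; the SE is the fold change over the root of F. Fold changes are log2 values fitted to the deposited counts. Scripts were tested on simulated data. The members and lists were chosen with earlier results of these data known. Every member is named; from each list, per comparison, up to 2 called genes per direction with the largest change and an average log2 CPM of at least 3 could be named. Of 210 listed genes 209 were matched. Oocytes of a group differed by more than sampling noise in all 400 pairs (lowest chi-square per degree of freedom 6.04). Alternatives were DESeq2 1.42.0, 2 other scalings, no filter, fewer groups, oocytes as replicates, limma 3.58.1 with the female as a block, each female left out, and, chosen after seeing the data, 3 oocytes left out. Depth limits Tfeb most: intervals and floors cover counting error only.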

Additional observations from a re-analysis of the deposited data

Results flagged for a closer look

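Of the members' single-oocyte values 12 lay apart from the rest of their group, by the gap to the nearest oocyte relative to the whole range, in 54 groups of 4 to 10 oocytes tested; chance flags about 1 in 20 groups. Of these, 3 were from 1 oocyte, RiboMinus GV cKO V1126_3, low for Ctsb (21.4 CPM), Ctsd (12.4 CPM) and Ctsl (0.627 CPM). PolyA MII control V836_2 was high for Ctsl (10.3 CPM) and Mcoln1 (344 CPM). For Tfeb the oocytes apart were V982_2 of the polyA GV3h controls (0.198 CPM), V853_1 of the polyA MII controls (0.14 CPM), V1132_2 of the RiboMinus GV controls (0.528 CPM) and V1167_1 of the RiboMinus MII cKO oocytes (0.503 CPM), the first 2 of which hold 1 count each. Npc1 was high in RiboMinus GV control V1132_4 (715 CPM), and Sqstm1 was high in polyA GV control V856_2 (91.6 CPM) and low in polyA MII control V896_1 (12.9 CPM).

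The change from GV to MII differed between polyA and RiboMinus libraries by the test of the difference itself. In controls the log2 differences were -1.50 for Ctsb, 1.32 for Mcoln1, 2.36 for Npc1 and -2.04 for Sqstm1. In cKO oocytes they were -1.93 for Ctsb, 1.96 for Npc1 and -1.55 for Sqstm1.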

How the results depend on the processing

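No paired analysis was possible because each female gave oocytes of 1 genotype and 1 stage, so shared replicate names mark no pair across groups. Of the 25 called member values none changed sign under any alternative run; 6 lost the call with library totals, 8 without 1 female, 2 with no filter, 2 of 18 with only the groups compared, 1 each with DESeq2 and its size factors, 1 of 24 with limma and 0 of 24 with oocytes as replicates. Of 1455 refits not called before or after, 89 changed sign.

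Members called between genotypes at polyA GV moved from 0 to 1 with DESeq2, its size factors, library totals, no filter and limma, and to 2 with oocytes. At polyA MII they moved from 1 to 3 (DESeq2, library totals, oocytes) or 2 (no filter, limma, or without oocyte V836_2). At RiboMinus GV they moved from 0 to 1 (DESeq2, no filter, limma) or 3 (oocytes), and at RiboMinus MII from 1 to 3 (DESeq2, no filter), 4 (limma), 5 (oocytes) or 0 (without V1166_1). The shares of all genes called there were 14.2%, 24.7%, 6.19% and 20.6% with DESeq2 at polyA GV, polyA MII, RiboMinus GV and RiboMinus MII, 5.94%, 11%, 4.74% and 11.9% with no filter, and 20.1%, 22.4%, 8.32% and 24.8% with limma; DESeq2 size factors gave 7.4% and library totals 7.38% at polyA GV, and library totals gave 20.0% at polyA MII. Without V836_2 17.8% of genes were called at polyA MII. From GV to GV3h in controls 1 was called with no filter (0.118% of genes). From GV to MII in RiboMinus the 0 in controls became 1 (DESeq2 6.08% of genes, no filter 3.09%, limma 7.0%), 3 (only the groups compared, 27.9%) or 2 (oocytes, 19.4%), and the 0 in cKO oocytes 1 (DESeq2 11.5%, no filter 7.52%), 3 (oocytes, 22.4%) or 4 (limma, 19.9%). The RiboMinus interaction gave 1 with no filter (2.89%) and with oocytes (14.8%). With oocytes as replicates the pathway list genes called between genotypes were 42 (polyA GV, where 35.8% of all genes were called), 70 (GV3h, 44.0%), 71 (polyA MII, 40.1%), 49 (RiboMinus GV, 25.8%) and 69 (RiboMinus MII, 34.6%). Without V1126_3 the RiboMinus GV lists gave 6 (where 2.6% of all genes were called), and without V1166_1 the RiboMinus MII lists gave 2 (3.63%).

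Leaving out 1 female, members called ranged from 0 to 1 at polyA GV, 3 to 5 at GV3h, 1 to 3 at MII and 1 to 3 at RiboMinus MII. From GV to MII they ranged from 4 to 7 in polyA controls, 4 to 6 in polyA cKO oocytes and 0 to 2 in RiboMinus cKO oocytes. For polyA against RiboMinus they ranged from 3 to 5 in controls and stayed at 3 in cKO oocytes. The 7 other counts stayed at 0. All these are counts of members alone, and calls over all genes in the same refits are not set beside them.

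Over the alternatives other than left-out females or oocytes, genes called ranged from 1 (only the groups compared) to 5798 (oocytes) at polyA GV, 4860 to 7130 at GV3h (4849 in the reported fit), 2522 to 6500 at MII, 3 to 4922 at RiboMinus GV and 1703 to 6620 at RiboMinus MII. From GV to MII they ranged from 0 to 5732 in RiboMinus controls and 0 to 4284 in RiboMinus cKO oocytes. From GV to GV3h at most 45 genes in controls and 255 in cKO oocytes were called. The interactions reached 28, 2742 and 2837 genes, and the polyA against RiboMinus terms 8424 and 8616. The causes were not tested.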
